A study of Mus musculus with 6 samples.

Results

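Aminoacyl-tRNA synthetases join each amino acid to its transfer RNA (tRNA), the step that supplies ribosomes with charged tRNA. The family was taken as every gene symbol on the array platform made of a single capital letter followed by ars, ars1 or ars2, together with Eprs, Farsa and Farsb. These symbols gave 35 of the 18193 genes measured: 19 cytosolic enzymes, with no final 2 in the symbol, and 16 mitochondrial enzymes, whose symbols end in 2. All 35 were measured, no filter on low values was applied, and members were taken by symbol alone. The family itself was chosen with earlier results of these data known. Enzymes for aspartate were not analysed here.

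The hearts compared came from TNFαDes-/- mice, which lack the intermediate filament protein desmin and overexpress the cytokine TNF-α in the heart, and from Des-/- mice, which lack desmin alone. There were 3 arrays of each genotype, all from mice 3 months old, and the series asked what cardiac TNF-α adds to gene expression in the desmin-null myocardium. Desmin loss is common to both groups, no wild-type heart is among these arrays, and neither labels nor design text name the promoter that drives the transgene. Des-/- mice are labelled 129SV and TNFαDes-/- mice a 129SV and C57 mixture, so the effects of strain background and of the transgene cannot be told apart. Per the labels, RNA of 3 hearts of a genotype was pooled before labelling, so the arrays of a group may be repeats of 1 pool, and p-values then measure only the spread between arrays, which may be technical.

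Cytosolic synthetases charge tRNA for the general protein supply of the cell, and mitochondrial ones, encoded in the nucleus and imported, charge the tRNA of the mitochondrial genome. They fall into class I and class II by the fold of their catalytic domain. In animals, several cytosolic enzymes sit together in a multisynthetase complex held by the scaffold proteins Aimp1, Aimp2 and Eef1e1. Genes of cytosolic synthetases are known targets of the transcription factor ATF4, which is translated when the initiation factor eIF2 is phosphorylated under amino acid shortage or endoplasmic reticulum stress.

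Levels are log2 values of 1 probe set per gene, the brightest over the 6 arrays, and each change is TNFαDes-/- minus Des-/- with its SE. A gene passed the test at a limma adjusted p under 0.05 over all genes. Where the Tnf and Des probe sets lie relative to the transgene and the deletion is unknown, so they check no label: Tnf changed by 0.07 ± 0.12 (adjusted p = 0.746) and Des by 0.39 ± 0.10 (adjusted p = 0.0219). Cardiomyocyte markers were high on every array, with a mean log2 level over 8 genes of 14.1 to 14.2 in TNFαDes-/- and 13.6 to 14.3 in Des-/- hearts. Des-/- replicate 1 stood apart: the log2 value that 1% of probe sets exceeded was 12.31 to 12.34 on TNFαDes-/- arrays, against 12.30 on Des-/- replicate 1 and 11.77 and 11.71 on replicates 2 and 3. The log2 ratio of 3' to 5' Gapdh probe sets, a sign of RNA quality, also moved with genotype, at 0.28 to 0.34 in TNFαDes-/- and -0.05 to 0.01 in Des-/- hearts. Its part in the results below was not tested. In whole hearts, fewer cells of a type and less RNA per cell cannot be told apart.

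Cytosolic synthetases rose in TNFαDes-/- hearts in 12 of 19 cases and fell in 0, while 1 of 16 mitochondrial synthetases rose and 0 fell. Of all genes, 21.3% passed, 15.2% as rises and 6.05% as falls. The median change was 0.41 for the cytosolic enzymes and 0.13 for the mitochondrial ones, against 0.04 for all genes. None of the 35 synthetases rose by 2-fold, as 1.95% of all genes did: the changes ran between -0.07 and 0.70 for cytosolic and between -0.24 and 0.65 for mitochondrial members. TNFαDes-/- arrays lay wholly above Des-/- arrays for 14 of 19 cytosolic genes and 3 of 16 mitochondrial genes, and for 24.3% of all genes. They lay wholly below for 0 cytosolic and 1 mitochondrial gene, and for 13.7% of all genes. The difference between the cytosolic and mitochondrial sets was not tested. By array, the median cytosolic member stood 0.43, 0.40 and 0.46 above its Des-/- mean on the TNFαDes-/- arrays, against 0.07, -0.04 and -0.06 on Des-/- replicates 1 to 3.

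**Figure D1:**
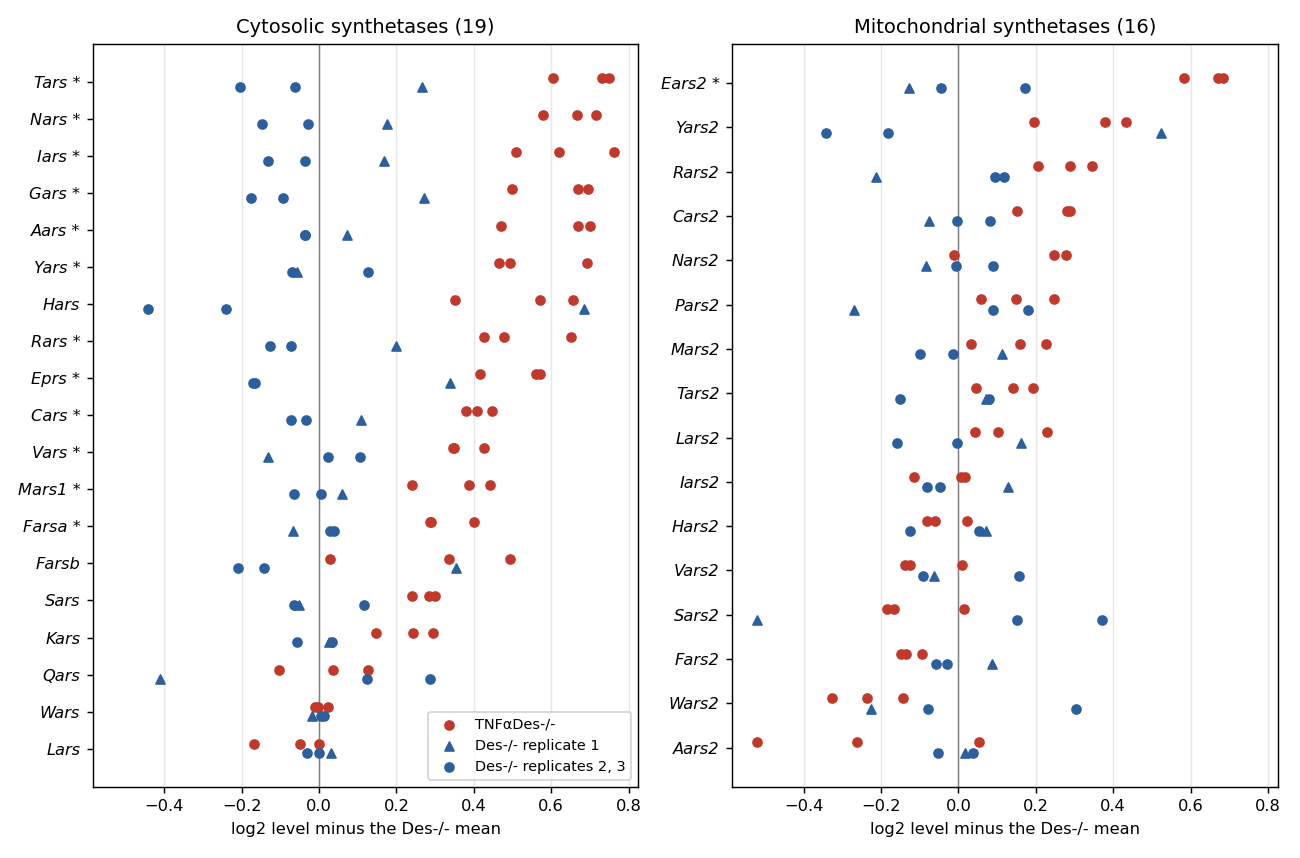
Log2 level of each synthetase on each array minus its Des-/- mean (x axis), for 19 cytosolic (left) and 16 mitochondrial genes (right), ordered by change. Red points are TNFαDes-/- arrays, blue points Des-/- arrays with replicate 1 as a triangle, and an asterisk marks genes past the test. Red points lie clear of blue ones for most cytosolic genes down to Farsa, and for few mitochondrial genes.

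The shift of all genes differed with brightness. All 19 cytosolic members lay in the brightest 2 of 5 equal groups of genes, 7 in the fourth and 12 in the fifth, where the median change was 0.15 and 0.27 and the share of genes that rose 24.6% and 31.2%. TNFαDes-/- arrays lay wholly above Des-/- arrays for 1376 of 3639 genes in the fourth group and 1534 of 3639 in the fifth. The mitochondrial members were spread wider, with 7 in the fourth group, 3 in the fifth, 5 in the third and 1 in the dimmest. Quantile normalization, which gives all arrays 1 distribution, set the median of all genes at -0.0039 and that of the fifth group at 0.02. It left 8 cytosolic rises of 19 with 0 falls, against 12% of all genes higher and 10.4% lower, and a cytosolic median of 0.31. All 8 were among the 12 that rose as deposited. With this scaling 19.8% of genes in the brightest group were higher and 17.4% lower, and in the next brightest 18.5% and 14%. For the mitochondrial enzymes quantile normalization left 1 rise and 1 fall, with a median of -0.03.

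**Figure D2:**
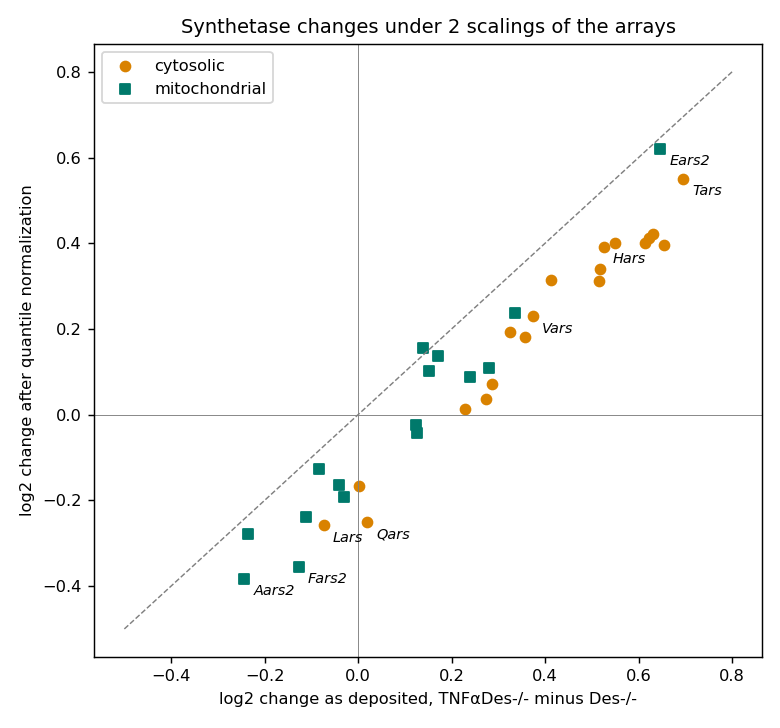
Log2 change of each synthetase as deposited (x axis) against its change after quantile normalization (y axis), TNFαDes-/- minus Des-/-. Circles are cytosolic and squares mitochondrial genes, and the dashed line marks equal values. Nearly all points lie below the line, and Ears2 and Tars are highest after quantile normalization.

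The count also leaned on single arrays. It was 14 of 19 without Des-/- replicate 1, and 5 of 19 without Des-/- replicate 2, Des-/- replicate 3, TNFαDes-/- replicate 1 or TNFαDes-/- replicate 3. The same 5 cytosolic genes, Tars, Nars, Iars, Aars and Yars, passed whichever array was left out.

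Threonyl-tRNA synthetase had the largest change of the family. Tars stood at 8.51, 8.36 and 8.49 in TNFαDes-/- hearts, against 8.02, 7.70 and 7.55 in Des-/- hearts, 1.62-fold higher (0.70 ± 0.13, adjusted p = 0.00748). Every TNFαDes-/- array was above every Des-/- array, and the highest Des-/- value was that of replicate 1. Its mitochondrial counterpart Tars2 read 8.63, 8.53 and 8.68 in TNFαDes-/- hearts and 8.56, 8.57 and 8.34 in Des-/- hearts. These groups overlapped, and the change of 0.13 ± 0.11 did not pass (adjusted p = 0.451).

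Asparaginyl-tRNA synthetase followed. Nars was at 10.16, 10.07 and 10.21 in TNFαDes-/- hearts and at 9.67, 9.47 and 9.35 in Des-/- hearts, 1.57-fold higher (0.65 ± 0.11, adjusted p = 0.00464). The groups did not overlap, and the other Nars probe set rose by 0.48. Nars2, the mitochondrial form, read 6.36, 6.10 and 6.39 in TNFαDes-/- hearts and 6.03, 6.11 and 6.201 in Des-/- hearts, with overlap and a change of 0.17 ± 0.11 (adjusted p = 0.333).

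Isoleucyl-tRNA synthetase, a member of the multisynthetase complex, rose 1.55-fold. Iars had 9.42, 9.31 and 9.565 in TNFαDes-/- hearts and 8.97, 8.77 and 8.67 in Des-/- hearts (0.63 ± 0.12, adjusted p = 0.00682). The groups did not overlap, and the other probe set rose as well, by 0.74. Iars2, at 8.51, 8.38 and 8.50 in TNFαDes-/- hearts and 8.62, 8.41 and 8.45 in Des-/- hearts, gave a change of -0.03 ± 0.10 (adjusted p = 0.877).

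Gars encodes both the cytosolic and the mitochondrial glycyl-tRNA synthetase from a single gene. It stood at 9.59, 9.42 and 9.62 in TNFαDes-/- hearts, against 9.20, 8.75 and 8.83 in Des-/- hearts, 1.54-fold higher (0.62 ± 0.14, adjusted p = 0.0130). The groups did not overlap, with Des-/- replicate 1 nearest to the TNFαDes-/- arrays, and the call was lost without TNFαDes-/- replicate 1 or 3 or Des-/- replicate 2 or 3 (adjusted p up to 0.0613).

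Alanyl-tRNA synthetase carries an editing site that clears wrongly charged tRNA, and a mutation there causes the neurodegeneration of the sticky mouse. Aars was 1.53-fold higher, at 9.32, 9.55 and 9.52 in TNFαDes-/- hearts against 8.92, 8.81 and 8.81 in Des-/- hearts (0.61 ± 0.10, adjusted p = 0.00431). The groups did not overlap, and the other probe set rose by 0.57. The mitochondrial Aars2, whose mutation causes infantile cardiomyopathy in humans, stood at 7.61, 7.93 and 7.35 in TNFαDes-/- hearts and 7.89, 7.91 and 7.82 in Des-/- hearts. TNFαDes-/- arrays straddled the narrow Des-/- range, and the change of -0.24 ± 0.14, the lowest of the family, did not pass (adjusted p = 0.278).

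Tyrosyl-tRNA synthetase rose 1.46-fold. Yars had 8.19, 8.39 and 8.16 in TNFαDes-/- hearts and 7.64, 7.82 and 7.63 in Des-/- hearts, without overlap (0.55 ± 0.11, adjusted p = 0.00886), a call that ended after quantile normalization (0.40, adjusted p = 0.0640). Yars2, linked in humans to mitochondrial myopathy with anaemia, read 7.54, 7.35 and 7.59 in TNFαDes-/- hearts, against 7.68, 6.97 and 6.81 in Des-/- hearts. Des-/- replicate 1 was the highest array of all, and the change was 0.34 ± 0.21 (adjusted p = 0.298), or 0.60 (adjusted p = 0.00578) without that array.

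Arginyl-tRNA and glutamyl-prolyl-tRNA synthetase are further members of the complex, and Eprs joins both activities in a single protein. Rars was at 8.95, 8.90 and 9.12 in TNFαDes-/- hearts and 8.67, 8.40 and 8.34 in Des-/- hearts (0.52 ± 0.12, adjusted p = 0.0173). Eprs was at 9.38, 9.22 and 9.37 in TNFαDes-/- hearts and 9.14, 8.63 and 8.64 in Des-/- hearts (0.52 ± 0.15, adjusted p = 0.0393). Neither gene's groups overlapped, though Des-/- replicate 1 of Eprs came close to the lowest TNFαDes-/- array. Without TNFαDes-/- replicate 1 or 3 or Des-/- replicate 2 or 3 neither passed (adjusted p up to 0.0770 for Rars), and Eprs also failed without TNFαDes-/- replicate 2. Of 3 other Eprs probe sets 1, almost as bright, rose by 0.93, and the others gave 0.36 and 0.12 without passing; with their mean the call was lost (adjusted p = 0.0889).

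The smallest rises were those of the cysteinyl, valyl, methionyl and phenylalanyl enzymes. Cars had 7.32, 7.39 and 7.35 in TNFαDes-/- hearts, against 7.05, 6.87 and 6.91 in Des-/- hearts (0.41 ± 0.10, adjusted p = 0.0175). Vars had 7.97, 7.89 and 7.89 in TNFαDes-/- hearts, against 7.41, 7.56 and 7.65 in Des-/- hearts (0.37 ± 0.10, adjusted p = 0.0318). Mars1, which charges both initiator and elongator methionine tRNA, had 8.84, 8.69 and 8.89 in TNFαDes-/- hearts and 8.51, 8.46 and 8.39 in Des-/- hearts (0.36 ± 0.10, adjusted p = 0.0356). None of these groups overlapped, and with the mean of all its probe sets Cars did not pass (0.13, adjusted p = 0.342). Farsa, the α subunit of phenylalanyl-tRNA synthetase, changed by 0.33 ± 0.09 (adjusted p = 0.0402), while its β subunit Farsb, with 9.45 on Des-/- replicate 1 among the TNFαDes-/- values of 9.43, 9.12 and 9.59, changed by 0.29 ± 0.18 and did not pass (adjusted p = 0.298). After quantile normalization Vars (0.23), Mars1 (0.18) and Farsa (0.19) did not pass. Each of these 3 and Cars also failed without Des-/- replicate 2 or 3 or TNFαDes-/- replicate 1 or 3, as did Vars and Farsa without TNFαDes-/- replicate 2, and the 3 other Farsa probe sets gave -0.06, -0.17 and -0.09.

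Among the 7 cytosolic genes that did not pass, histidyl-tRNA synthetase was set by a single array. Hars stood at 8.45, 8.23 and 8.54 in TNFαDes-/- hearts, and at 8.57, 7.44 and 7.64 in Des-/- hearts. Des-/- replicate 1 was above all TNFαDes-/- arrays, and the change was 0.53 ± 0.26 (adjusted p = 0.192), against 0.87 (adjusted p = 0.00204) without that array. A second Hars probe set rose by 0.78 with all 6 arrays. Seryl-tRNA synthetase Sars (0.27 ± 0.10, adjusted p = 0.0792) also had a second probe set that passed, at 0.40 (adjusted p = 0.0343 over all probe sets). Lysyl-tRNA synthetase Kars, which like Gars serves both compartments, changed by 0.23 ± 0.09 (adjusted p = 0.126).

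The brightest probe sets of the glutaminyl, tryptophanyl and leucyl enzymes gave changes close to 0. Qars read 9.64, 9.78 and 9.87 in TNFαDes-/- hearts and 9.33, 9.87 and 10.03 in Des-/- hearts, with TNFαDes-/- arrays inside the Des-/- range (0.02 ± 0.17, adjusted p = 0.954). Wars, an interferon-induced gene in human cells, was at 8.26, 8.28 and 8.25 in TNFαDes-/- hearts and 8.24, 8.27 and 8.275 in Des-/- hearts (0.00 ± 0.09, adjusted p = 0.987). Lars, a leucine sensor for mTORC1 in human cells, was at 8.68, 8.56 and 8.73 in TNFαDes-/- hearts and 8.76, 8.73 and 8.70 in Des-/- hearts (-0.07 ± 0.10, adjusted p = 0.647). A p above the threshold does not show that these genes were equal, and the scaling moves them: after quantile normalization Qars gave -0.25, Wars -0.17 and Lars -0.26. Other probe sets of Qars gave 0.33 without overlap (adjusted p = 0.0582 over all probe sets), -0.02 and -0.07, and those of Wars gave 0.05, -0.24 and -0.27, the last without overlap, and none of these 6 passed.

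By structural class and membership of the complex the counts were as follows. Of 9 class I genes 6 rose (median 0.37), and of 9 class II genes 5 rose (median 0.53), while Eprs belongs to both classes. Of 7 enzymes of the complex 4 rose (median 0.36), and of 12 outside it 8 rose (median 0.47). After quantile normalization 3 of 9 class I genes rose (median 0.23) and 4 of 9 class II genes (median 0.39), and 3 of 7 in the complex (median 0.18) and 5 of 12 outside it (median 0.35). Among all genes 15.2% rose as deposited, with 31.2% in the brightest of the 5 groups and 24.6% in the next brightest. With quantile normalization these shares were 12%, 19.8% and 18.5%. Differences between the class and complex subsets were not tested.

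Ears2, the mitochondrial glutamyl-tRNA synthetase, was the 1 mitochondrial gene that rose. In mitochondria it also places glutamate on the glutamine tRNA, which an amidotransferase then converts. It stood at 6.42, 6.32 and 6.41 in TNFαDes-/- hearts, against 5.61, 5.91 and 5.69 in Des-/- hearts, 1.57-fold higher (0.65 ± 0.11, adjusted p = 0.00433). The groups did not overlap. Its 3 other probe sets were dimmer than the middle probe set of each array and gave 0.24, 0.23 and -0.05, and with the mean of all its probe sets the call was lost (0.27, adjusted p = 0.0555).

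The other 15 mitochondrial genes did not pass. Rars2 read 8.21, 8.29 and 8.35 in TNFαDes-/- hearts and 7.79, 8.10 and 8.12 in Des-/- hearts, without overlap (0.28 ± 0.12, adjusted p = 0.129). Cars2 read 7.96, 8.09 and 8.10 in TNFαDes-/- hearts and 7.73, 7.89 and 7.81 in Des-/- hearts, also without overlap (0.24 ± 0.10, adjusted p = 0.120). Pars2, the prolyl enzyme, read 6.45, 6.64 and 6.54 in TNFαDes-/- hearts and 6.12, 6.57 and 6.48 in Des-/- hearts, and overlapped (0.15 ± 0.13, adjusted p = 0.480). Valyl Vars2 also overlapped, with 6.28, 6.42 and 6.27 in TNFαDes-/- hearts and 6.34, 6.31 and 6.56 in Des-/- hearts (-0.08 ± 0.11, adjusted p = 0.638). The other Vars2 probe set gave 0.39 without overlap and did not pass (adjusted p = 0.0711 over all probe sets). Mars2, at 3.82, 3.70 and 3.89 in TNFαDes-/- hearts and 3.78, 3.57 and 3.65 in Des-/- hearts, was dimmer than the middle probe set of each array, so its level may be background. Phenylalanyl Fars2 was the 1 member whose TNFαDes-/- arrays all lay below the Des-/- arrays, at 9.25, 9.26 and 9.30 in TNFαDes-/- hearts and 9.48, 9.37 and 9.34 in Des-/- hearts. Its change was -0.13 ± 0.09 (adjusted p = 0.391), and it passed after quantile normalization at -0.36 (adjusted p = 0.0290), while its other probe set gave 0.70 without passing. Seryl Sars2 spread from 6.90 to 7.79 on the Des-/- arrays alone, around TNFαDes-/- values of 7.23, 7.43 and 7.25. Its change was -0.11 ± 0.21 (adjusted p = 0.756), or -0.37 (adjusted p = 0.0394) without Des-/- replicate 1, the lowest Des-/- array.

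Setting the enzymes for each amino acid side by side gave 17 pairs, from 16 cytosolic and 16 mitochondrial genes. The cytosolic change was the larger in 15 of the 17. Taken array by array, the cytosolic minus mitochondrial gap was higher on every TNFαDes-/- array than on any Des-/- array in 7 pairs and lower on every one in 1, leucine, and it overlapped between genotypes in the others. The gap was widest for alanine, where Aars exceeded Aars2 by 0.86, then isoleucine (0.66), threonine (0.57) and histidine (0.57), and it was smallest among these 15 for cysteine (0.17). Leucine (-0.20) and glutamate (-0.13) ran the other way, with Lars2 at 0.12 and Lars at -0.07, and with Ears2 at 0.65 and Eprs at 0.52. The direction of a gap can depend on the probe set. A second Lars2 probe set gave -0.35 without overlap (adjusted p = 0.0686 over all probe sets), below Lars, and a second Eprs probe set gave 0.93, above Ears2. Conversely, a second Vars2 probe set (0.39) exceeded Vars (0.37), and a second Fars2 probe set (0.70) exceeded Farsa (0.33). The gaps were not tested.

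**Figure D3:**
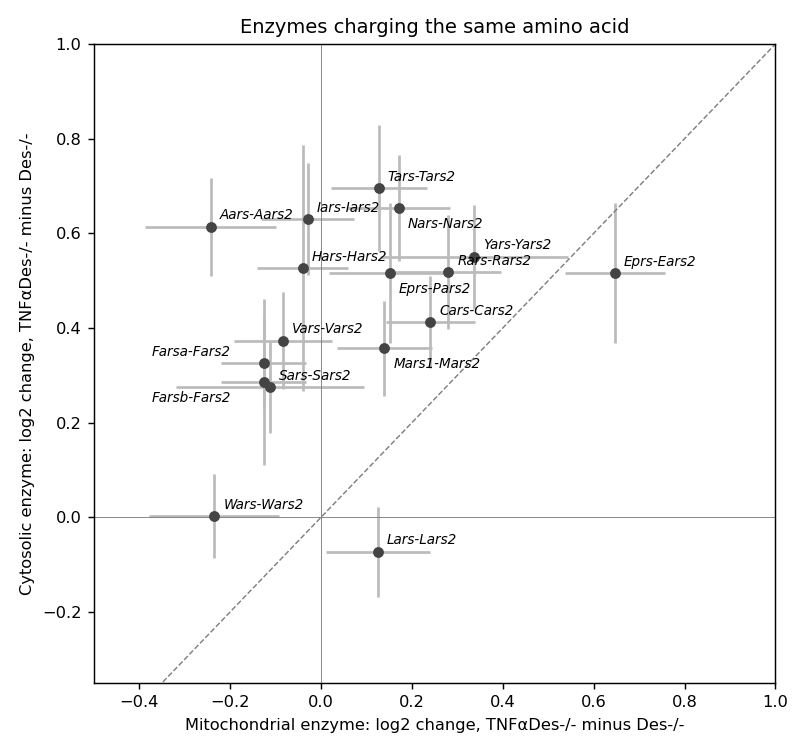
Change of the mitochondrial enzyme (x axis) against that of the cytosolic enzyme (y axis) for the same amino acid, in log2 units, TNFαDes-/- minus Des-/-, with SE bars and a dashed line of equal change. Eprs and Fars2 each enter 2 pairs. Of 17 points, 15 lie above the line, and the pairs of Lars with Lars2 and Eprs with Ears2 lie below it.

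RefSeq promoter windows of build GRCm38.p6, covering 250 bases before to 50 after a gene's start, were at hand for 26 members, 12 cytosolic and 14 mitochondrial. They were searched on both strands for TGATGNAA, the core of the C/EBP-ATF response element that ATF4 binds. It was found in 5 of the 12 cytosolic genes (41.7%), in 0 of the 14 mitochondrial genes, and in 4.51% of all 27025 genes with a window. The 5 were Tars, Iars, Gars, Aars and Yars. A match of each gene is shown 5′ to 3′ along the gene with the element core in capitals, and positions count from the gene's start.
Tars, chr15:11399656-11399683, minus strand, match at -15: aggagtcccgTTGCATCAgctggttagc
Iars, chr13:49682127-49682154, plus strand, match at 8: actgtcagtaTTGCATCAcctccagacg
Gars, chr6:55037961-55037988, plus strand, match at -30: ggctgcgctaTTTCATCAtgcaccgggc
Aars, chr8:111033841-111033868, plus strand, match at 10: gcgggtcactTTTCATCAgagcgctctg
Yars, chr4:129189896-129189923, plus strand, match at 4: cgagctcagcTGATGCAAcccgacggga

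Changes of the 5 genes with a match ran between 0.55 and 0.70 (median 0.62), and all 5 had risen. Those of the 7 cytosolic genes with a window and no match, Eprs, Mars1, Farsa, Farsb, Sars, Kars and Qars, ran between 0.02 and 0.52 (median 0.29), and 3 had risen. The other cytosolic genes had no window at hand and are in neither group. Of these, Nars (0.65), Rars (0.52), Cars (0.41) and Vars (0.37) had risen, and Hars (0.53), Wars (0.00) and Lars (-0.07) had not passed. After quantile normalization the ranges were 0.40 to 0.55 with a match and -0.25 to 0.31 without. Across all measured genes, of 468 with a match 12.4% rose (median change 0.02), against 15.8% of 13984 genes without (median 0.05). A match is a run of letters, not a shown binding site, and its absence from a window says nothing of the factor.

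**Figure D4:**
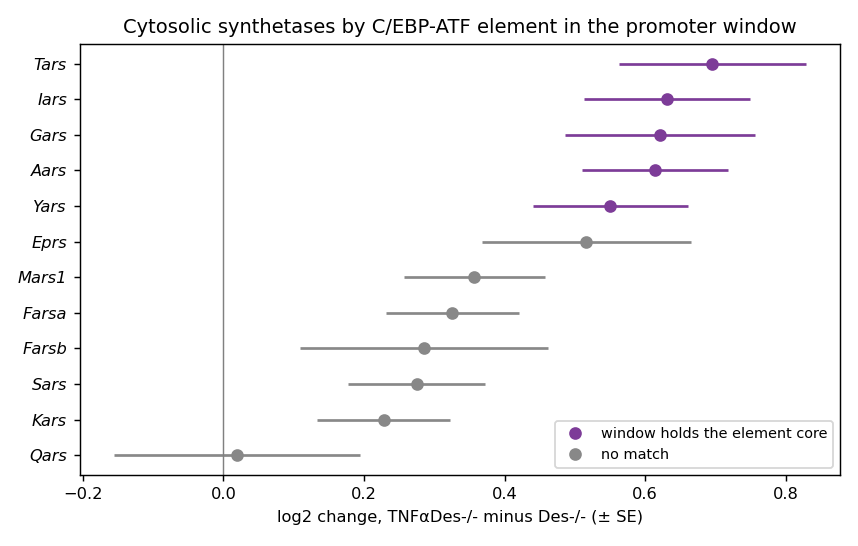
Log2 change, TNFαDes-/- minus Des-/-, with SE bars (x axis), for the 12 cytosolic synthetases with a promoter window, grouped by whether the window holds the C/EBP-ATF element core (purple) or not (grey). The 5 genes with a match lie between 0.55 and 0.70 and the 7 without between 0.02 and 0.52.

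The bases upstream of the start are given for the threonyl enzymes, whose cytosolic gene holds the element and whose mitochondrial gene does not; capitals mark the element core.
Tars, chr15:11399659-11399908, minus strand: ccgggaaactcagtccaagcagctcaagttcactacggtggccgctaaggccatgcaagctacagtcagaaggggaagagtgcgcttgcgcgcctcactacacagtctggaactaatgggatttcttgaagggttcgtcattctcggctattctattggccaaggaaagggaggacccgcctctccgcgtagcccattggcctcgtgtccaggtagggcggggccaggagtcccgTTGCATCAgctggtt
Tars2, chr3:95754978-95755227, minus strand: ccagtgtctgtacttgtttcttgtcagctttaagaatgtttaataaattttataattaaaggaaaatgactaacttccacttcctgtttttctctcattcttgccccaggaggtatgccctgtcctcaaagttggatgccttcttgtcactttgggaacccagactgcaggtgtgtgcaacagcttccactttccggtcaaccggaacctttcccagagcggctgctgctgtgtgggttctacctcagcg

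Of the 3 scaffolds of the multisynthetase complex 2 rose, against 15.2% of all genes. Eef1e1, the smallest scaffold, stood at 8.80, 8.70 and 8.89 in TNFαDes-/- hearts, against 7.97, 7.45 and 7.31 in Des-/- hearts (1.22 ± 0.17, adjusted p = 0.00165), a larger change than that of any synthetase. Aimp2 rose by 0.46 ± 0.10 (adjusted p = 0.0109), with 9.45, 9.57 and 9.52 in TNFαDes-/- hearts and 9.13, 9.06 and 8.98 in Des-/- hearts. Aimp1, at 9.35, 9.21 and 9.54 in TNFαDes-/- hearts and 9.19, 8.90 and 8.83 in Des-/- hearts, did not pass (0.39 ± 0.13, adjusted p = 0.0662). None of the 3 had overlapping groups, and after quantile normalization, where 12% of all genes rose, Eef1e1 alone passed (1.07).

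Genes that handle tRNA before charging gave 2 rises of 3, against 15.2% of all genes. Trnt1, which adds the terminal bases to which the amino acid is joined, rose by 0.63 ± 0.15 (adjusted p = 0.0193), and Xpot, the nuclear exporter of tRNA, by 0.62 ± 0.18 (adjusted p = 0.0456), with 8.77, 8.50 and 8.96 in TNFαDes-/- hearts and 8.51, 7.85 and 8.02 in Des-/- hearts. The processing nuclease Elac2 changed by 0.19 ± 0.10 and did not pass. Of 7 related enzymes and paralogues, 1 rose and 1 fell, against 15.2% and 6.05% of all genes. Dtd1, which removes D-amino acids from tRNA, rose by 0.63 ± 0.11 (adjusted p = 0.00465), and Tarsl2, a paralogue of Tars, fell by 0.44 on the log2 scale (adjusted p = 0.0423). Tarsl2 stood at 7.53, 7.185 and 7.51 in TNFαDes-/- hearts and 8.01, 7.82 and 7.72 in Des-/- hearts, without overlap, the opposite direction to Tars. The tRNA-proofreading paralogues Prorsd1 (0.65 ± 0.25) and Aarsd1 (0.01 ± 0.09), with Dtd2, Sepsecs and Pstk, did not pass.

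Genes of the amino acid response, the programme driven by ATF4, rose in 15 of 24 cases with 0 falls (median 0.48), and in 13 with 1 fall after quantile normalization. Of all genes, 15.2% rose as deposited and 12% after quantile normalization. Among the 9 that did not pass as deposited were Ddit3 (0.25), Slc7a1 (0.22), Psph (0.20), Phgdh (0.12), Cebpg (0.11) and Shmt2 (0.04). Atf4 itself was at 10.21, 10.43 and 10.17 in TNFαDes-/- hearts and 9.56, 9.80 and 9.61 in Des-/- hearts (0.61 ± 0.12, adjusted p = 0.00693; 0.33 and adjusted p = 0.194 after quantile normalization). The 5 largest rises were Chac1, which degrades glutathione (1.91 ± 0.10), Aldh18a1, of proline synthesis (1.48 ± 0.17), the transcription factor Atf5 (1.44 ± 0.10), Psat1, of serine synthesis (1.23 ± 0.12), and the mitochondrial folate enzyme Mthfd2 (0.99 ± 0.12). The element core was found in 7 of 23 of these genes with a window, of which 4 had risen: Asns, the asparagine synthetase (0.82 ± 0.10), Chac1, Trib3 (0.42 ± 0.11) and Nupr1 (0.39 ± 0.10). The other 3, Slc7a11 (0.05 ± 0.13), Fgf21 (0.02 ± 0.17) and Vldlr (-0.25 ± 0.17), did not pass, and Vldlr was the 1 fall after quantile normalization (-0.60, adjusted p = 0.00152). Of 6 genes around eIF2 phosphorylation 2 rose: the endoplasmic reticulum kinase Eif2ak3 by 0.45 ± 0.11 and the phosphatase subunit Ppp1r15a by 0.81 ± 0.10. The amino acid sensor kinase Eif2ak4 (0.17 ± 0.16), dimmer than the middle probe set of each array, with Eif2ak1 (0.26 ± 0.11), Eif2ak2 (0.06 ± 0.11) and Ppp1r15b (0.13 ± 0.13) did not pass.

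**Figure D5:**
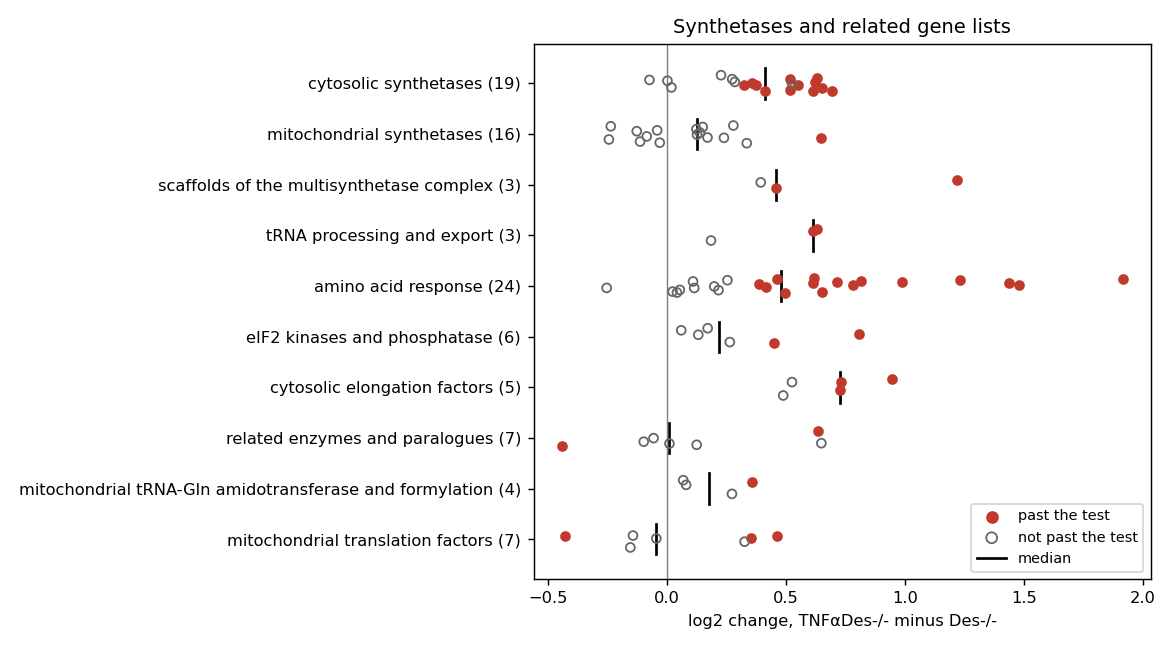
Log2 change of each gene, TNFαDes-/- minus Des-/- (x axis), for the synthetases and 8 related lists (rows, with the number measured). Filled points passed the test, open points did not, and a black bar marks the median. The cytosolic rows sit mostly right of 0, and the mitochondrial rows centre nearer to it.

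Elongation factors that carry charged tRNA to the ribosome were counted in the same way. Of 5 cytosolic factors 3 rose and 0 fell (median 0.73), also after quantile normalization, where the median was 0.36. As deposited, 15.2% of all genes rose, and 31.2% of those in the brightest of the 5 groups. Eef1a1, which delivers charged tRNA, stood at 14.10, 14.11 and 14.08 in TNFαDes-/- hearts and 13.49, 13.03 and 12.94 in Des-/- hearts (0.94 ± 0.14, adjusted p = 0.00278). Eef2 (0.73 ± 0.17) and Eef1b2 (0.73 ± 0.21) also rose, and Eef1a2 (0.53 ± 0.20) and Eef1d (0.49 ± 0.19) did not pass. For these bright genes Des-/- replicate 1 was the highest Des-/- array. Of 7 mitochondrial translation factors 2 rose and 1 fell (median -0.04): the release factor Mtrf1l (0.46 ± 0.11) and the initiation factor Mtif3 (0.35 ± 0.10) rose, and Gfm2, of ribosome recycling, fell by 0.43 on the log2 scale. After quantile normalization 1 rose and 2 fell (median -0.30): Mtif3 did not pass (0.24, adjusted p = 0.159), and the elongation factor Gfm1 fell (-0.43, adjusted p = 0.00843). Among all genes 6.05% fell as deposited, and 12% rose and 10.4% fell after quantile normalization. Tufm, the mitochondrial partner of Eef1a1 in function, changed by -0.04 ± 0.09. In the mitochondrial glutamine route, the amidotransferase subunit Gatb rose by 0.36 ± 0.09 (adjusted p = 0.0286; 0.22 and adjusted p = 0.132 after quantile normalization), while its partners Gatc (0.07 ± 0.10) and Qrsl1 (0.08 ± 0.15) and the methionine formylase Mtfmt (0.27 ± 0.16) did not pass.

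Some markers of other cells of the heart passed the test as well. Among all genes, 15.2% rose and 6.05% fell as deposited, against 12% and 10.4% after quantile normalization. Of 8 macrophage markers 4 rose and 1 fell, with a mean log2 level of 8.27 to 8.28 in TNFαDes-/- and 7.97 to 8.32 in Des-/- hearts. The marker that fell was Cd68 (-1.48 ± 0.13). Of 6 endothelial markers 0 rose and 3 fell, with means of 8.44 to 8.48 in TNFαDes-/- and 8.69 to 8.99 in Des-/- hearts. Of 6 fibroblast markers 1 rose, of 6 smooth muscle and pericyte markers 1 fell, of 5 lymphocyte markers 0 passed, and of 2 erythroid and 2 adipocyte markers 1 each fell. Of 8 cardiomyocyte markers 0 passed. After quantile normalization falls numbered 2 of 8 for cardiomyocyte markers (Tnni3 and Ryr2), 4 of 6 for endothelial, 3 of 6 for fibroblast and 3 of 6 for smooth muscle and pericyte markers, and the counts of rises and the other falls were as before. The part of these shifts in the synthetase values was not tested.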

How the data were processed

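RNA of hearts was hybridised to 6 one-colour oligonucleotide arrays, 3 per genotype, grouped by sample title. The deposited values are on the log2 scale, and the authors made them with RMA, a tool named without a version per the submitters' processing notes; further steps are not given in the sources used here, and the columns do not share 1 distribution. Of 45101 probe sets, 64 are controls, 34945 have 1 gene symbol, 932 several and 9160 none in the platform annotation; only the second kind was used. For each of 18193 genes the brightest probe set by mean over 6 arrays was kept. RefSeq matched all 35 synthetases by gene ID.

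Genotypes were compared with limma 3.58.1 (lmFit and eBayes) in R 4.3.3, adjusting p-values by Benjamini-Hochberg across all genes (threshold 0.05). The script was tested on simulated data, where recovery was required only of changes larger than that of any synthetase. Same-numbered arrays deviated with correlations of 0.25, 0.31 and -0.30, so the numbers were not taken as pairs. The synthetases, the other lists, the motifs and the rule for named genes (array values for the 12 largest changes past the test with their counterparts, and up to 5 genes of each longer list) were chosen with earlier results of these data known, so nothing is reported as independent support. Alternatives covered variance settings, array weights, a replicate block, probe set choice, scaling and each array left out. The number of arrays limits the precision. Figures were drawn with matplotlib 3.10.9. Some promoter sequence is not reported here.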

Additional observations from a re-analysis of the deposited data

How the results depend on the processing

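Over 17 alternatives the 35 synthetases gave 590 values, of which 480 kept direction and call, 51 lost a call, 21 gained one and 38 changed sign; 1 of these 38, Farsa, concerned a gene that had passed. Tars, Nars and Iars passed under all 17. Cytosolic rises, 12 as reported, numbered 7 with cyclic loess and 5 to 14 with single arrays left out, and cytosolic falls 2 with quantile normalization without Des-/- replicate 1. Mitochondrial rises, 1 as reported, numbered 3 with array weights, 0 with the mean of all probe sets, 2 with quantile normalization without Des-/- replicate 1, and 1 to 2 with single arrays left out. Mitochondrial falls, 0 as reported, numbered 2 with array weights, 1 with quantile normalization, 1 with cyclic loess, 2 with quantile normalization without Des-/- replicate 1, and 0 to 1 with single arrays left out. The cytosolic median, 0.41, was 0.31 with quantile normalization, 0.28 with cyclic loess and 0.30 with quantile normalization without Des-/- replicate 1. The mitochondrial median, 0.13, was -0.033, -0.060 and -0.087 under these 3 scalings, and 0.048 to 0.13 with single arrays left out. All genes past the test, 3869, numbered 8414 with array weights and 2068 to 5814 with single arrays left out. The replicate block gave 10 cytosolic rises and 1 mitochondrial rise, with Mars1 and Farsa lost and 4278 genes in all. The promoter element, in 41.7% of cytosolic genes and 4.51% of all genes with a window, was in 8.33% and 2.41% when read on 1 strand. The causes of these shifts were not tested.

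Sign changes were as follows. With array weights Hars2 was 0.039, Iars2 0.058, Pars2 -0.022, Qars -0.18 and Wars -0.0088. With the mean of all probe sets Fars2 was 0.29, Hars2 0.13, Lars2 -0.10, Vars2 0.15 and Wars -0.11. With probe sets _a_at, _s_at and _x_at left out Farsa was -0.086, Hars2 0.30 and Qars -0.071. With quantile normalization Lars2 was -0.023, Qars -0.25, Tars2 -0.042 and Wars -0.17. With cyclic loess Kars was -0.013, Lars2 -0.042, Qars -0.25, Tars2 -0.077 and Wars -0.18. With quantile normalization without Des-/- replicate 1 Cars2 was -0.021, Kars -0.086, Lars2 -0.021, Pars2 -0.062, Qars -0.59, Rars2 -0.072, Sars -0.11, Tars2 -0.10 and Wars -0.26. With single arrays left out the sign of 4 genes changed, over ranges of -0.070 to 0.035 for Iars2, -0.19 to 0.16 for Qars, -0.37 to 0.073 for Sars2 and -0.0072 to 0.0097 for Wars.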

Other observations

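Other motifs searched in the same windows were TGACNNNGC, the core of the antioxidant response element bound by NRF2, and CACGTG, the E-box bound by MYC and related factors. The antioxidant core was in 3 of 12 cytosolic windows (Aars, Iars and Mars1), in 3 of 14 mitochondrial ones (Aars2, Lars2 and Nars2) and in 14% of all genes. The E-box was in 4 of 12 cytosolic genes (Aars, Farsb, Iars and Tars), in 1 of 14 mitochondrial genes (Ears2) and in 8.09% of all. Across all measured genes, 21.6% of 1479 genes with an E-box rose (median change 0.12), against 15% of 12973 without (median 0.04), and 18% of 2334 with the antioxidant core rose, against 15.3% of 12118 without. No window of the 26 had matches of different motifs that shared a base, a count of 0. These shares are descriptions, and no factor was measured.

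Of 37 further probe sets of 23 synthetases, 19 had the same sign as the probe set used, 26 gave the same call, which includes not passing, 0 were called in the opposite direction, and 13 lay below the median of each array.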
